A study of Mus musculus with 24 samples.

Results

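The collagen genes examined here are the protein-coding genes of the count table whose symbols have the form of Col, a type number, the letter a and a chain number. They numbered 44 of the 33000 genes in the table. All 44 had at least 1 read counted in some library, and between 39 and 43 of them had a read in any 1 mouse, so no collagen gene was undetected in the series as a whole. The measurements come from 24 libraries of 3'Pool-seq, an assay that primes on polyA tails and sequences the 3' ends of messenger RNAs. The RNA was from the frontal cortex of 3 WT and 3 GFAP-IL6 mice, with 4 libraries from each mouse. All 6 mice were 3 months old, and the paper names C57BL/6 as the strain of the WT mice. The GFAP-IL6 mice were homozygous for a transgene in which the GFAP promoter, active mainly in astrocytes, drives expression of interleukin-6. For each mouse, 2 libraries were made from 2 ng and 2 from 1 ng of amplified cDNA in the tagmentation, 1 of each in set A and in set B, and nothing in the labels tells what the sets are.

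Collagens are extracellular proteins in which 3 chains wind into a triple helix, so the chains of a type are often encoded by several genes. Fibrillar collagens form the fibres of connective tissue, collagen IV forms the network of basement membranes, and fibril-associated and transmembrane collagens connect fibres, cells and surrounding matrix. In brain the fibrillar and basement membrane types are known mainly from meninges and vessel walls, whereas some fibril-associated and transmembrane types, such as Col19a1 and Col25a1, are known from neurons. Hydroxylases, chaperones and cross-linking enzymes mature the chains, integrins and other receptors bind them, and metalloproteinases degrade them.

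The basement membrane chains show the pairing of collagen genes most directly. Col4a1 and Col4a2 lie head to head on chromosome 8, with Col4a1 at chr8:11198423-11312826 on the minus strand and Col4a2 at chr8:11312805-11449287 on the plus strand of GRCm38. The first bases of both genes overlap, and the stretch that belongs to both starts is shown because both genes begin in it. It is given 5′ to 3′ on the plus strand at chr8:11312805-11312826, from RefSeq sequence on GRCm38.p6, with a GC box, the letters GGGCGG searched on both strands, in capitals.
Col4a1 and Col4a2 shared start: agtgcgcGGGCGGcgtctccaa
The remaining collagen IV genes are paired in the same way, Col4a4 and Col4a3 on chromosome 1 with 71 bases between them and Col4a6 and Col4a5 on chromosome X with 1308 bases between them. The genes of these pairs had far fewer counts than Col4a1 and Col4a2, as described below.

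RefSeq windows of 250 bases before a start were at hand for 35 of the 44 genes, as 38 windows in all. Those not matched were Col1a1, Col2a1, Col4a3, Col5a2, Col9a3, Col12a1, Col14a1, Col22a1 and Col26a1. The GC box was in 22 of 38 windows (57.9%), against 32.7% of all 32851 promoter windows in the reference, and the median GC content was 59% against 52.4%. The letters TATAAA, those of a TATA element, were on the strand of the gene in 5 windows (13.2%, against 7.59% of all windows). They began 32 bases before the start in Col10a1, and 91 to 237 bases before it in Col3a1, Col11a2, Col13a1 and Col17a1. The letters TTCNNNGAA, a palindromic motif of STAT factors, which act downstream of interleukin-6 receptors, were in 2 windows (5.26%, against 7.02% of all windows). Both matches are shown with 9 bases on either side and the motif in capitals, on the strand of the gene.
Col28a1, chr6:8192704-8192730, minus strand: ccctccctcTTCAGAGAAacttgttga
Col6a5, chr9:105960835-105960861, minus strand: gtcgtggatTTCTGAGAAactctgcct
These are matches of letters only, and neither gene had enough counts to pass edgeR's filter for the test between genotypes.

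Summed over its 4 libraries, a mouse had between 7852743 counts in WT 3 and 37582644 in GFAP-IL6 3, and single libraries had between 1524165 and 12256374. Levels are CPM, counts of a gene scaled to a common library total, after TMM scaling of the mouse totals. Il6 had between 0 and 5 counts in the WT mice and 30, 33 and 163 counts in the GFAP-IL6 mice. WT 3 stood apart from the other mice in markers of the choroid plexus, the tissue that secretes cerebrospinal fluid. Ttr, the main secreted product of that tissue, was at 102, 153 and 4038 CPM in WT 1, 2 and 3 and at 743, 423 and 74.6 CPM in GFAP-IL6 1, 2 and 3. The sum of 10 markers of fibroblasts and meninges was highest in WT 2 with 155.5 CPM and GFAP-IL6 3 with 176.0 CPM, against 91.2 to 114.2 CPM in the remaining mice. Neuronal markers summed to between 5047 and 6087 CPM in every mouse. Markers of striatal neurons, from the tissue beneath the cortex, summed to between 144 and 276 CPM.

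The collagen genes were a small part of the transcriptome. Together they took 138.8, 138.7 and 129.3 CPM in WT 1, 2 and 3 and 140.1, 148.7 and 154.1 CPM in GFAP-IL6 1, 2 and 3. On this scale the groups did not overlap, with a mean of 147.6 ± 7.07 CPM (SD, n = 3) in GFAP-IL6 against 135.6 ± 5.48 CPM (SD, n = 3) in WT. No test was made on this sum, because a sum over chosen genes is dominated by its most abundant members. Without Col19a1, the most abundant, the difference between the group means was 10.1 CPM instead of 12.03 CPM, and with library totals in place of TMM scaling it was 15.0 CPM. With library totals the groups overlapped, however, since GFAP-IL6 1 was at 139.3 CPM and WT 1 at 139.6 CPM.

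The most abundant collagen genes of frontal cortex were not those of fibres. The highest mean level was that of Col19a1, with 18.04 CPM over the 6 mice, followed by Col6a1 with 13.6 CPM, Col25a1 with 12.05 CPM, Col4a2 with 12.01 CPM and Col4a1 with 10.4 CPM. These 5 genes took 46.7% of all collagen CPM. Neighbours in this order of 5 had overlapping ranges over the mice. The mean level was above 1 CPM for 26 of the 44 genes. By role, fibril-associated collagens took 31.7% of the collagen CPM, fibrillar collagens 19.1%, collagen IV 16.7%, collagen VI 14.7%, transmembrane collagens 10.54% and hexagonal-network collagens 3.81%. The 3 remaining collagens outside these roles took 2.19% and the endostatin-type collagens 1.26%.

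Reads of a 3' assay come mostly from the end of a transcript, so CPM without a length correction is its usual level, but levels between genes are also given per kilobase of the deposited gene length. On that scale Col19a1 came first with 4.07 CPM per kb, then Col6a1 with 3.31, Col9a3 with 3.12, Col9a2 with 1.96 and Col4a2 with 1.86 CPM per kb. Col25a1 came sixth with 1.75 and Col4a1 seventh with 1.57 CPM per kb. Both scales put Col19a1 first and Col6a1 second. The last 500 bases of Col9a3 overlap the span of Tcfl5 on the opposite strand. The same holds for Col4a1 with Gm15418, Col18a1 with Slc19a1, Col10a1 with Nt5dc1 and Col4a3 with C430014B12Rik. The strand setting of the counting is not known and the exons of these neighbours were not compared. Whether the overlap touched the counts was therefore not tested.

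**Figure D1:**
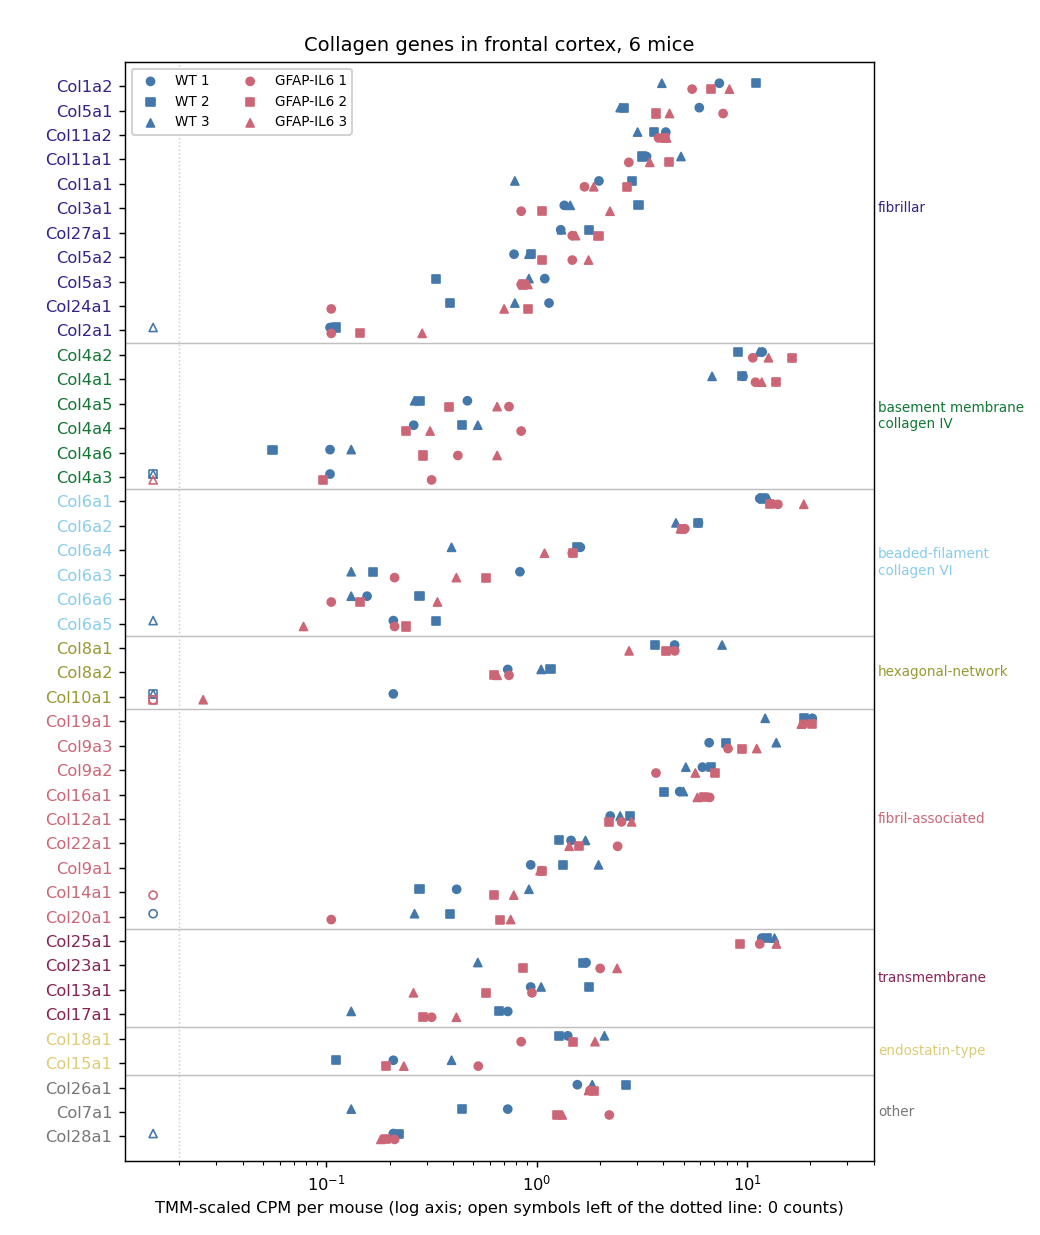
TMM-scaled CPM of the 44 collagen genes in each of the 6 mice (log axis), grouped by role, with circles, squares and triangles for mice 1, 2 and 3 of each genotype and open symbols for mice without a count. Col19a1, Col6a1, Col25a1, Col4a2 and Col4a1 lie at 6.82 CPM or more in every mouse, and Col10a1 had counts in 2 mice only.

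Chains of 1 protein were at unequal levels in some pairs and near to each other in others. Col1a2, the second chain of collagen I, had 883 counts against 239 of Col1a1, the first chain, and had more in 24 of 24 libraries. Their ratio ranged from 0.20 to 0.40 between mice. Col6a1 had 1650 counts against 590 of Col6a2, its partner in the microfibrils of collagen VI, again with more in 24 of 24 libraries and ratios of 1.96 to 3.86. Col4a1 and Col4a2 were near to each other, with 1250 and 1409 counts and ratios of 0.60 to 1.04 between mice. So were Col11a1 and Col11a2, with 406 and 448 counts and ratios of 0.72 to 1.61. Col8a1 had 446 counts against 88 of Col8a2, the other chain of collagen VIII, and the ratio was 3.14 to 7.25. Per kilobase the ratios were 0.25 for Col1a1 to Col1a2, 3.84 for Col6a1 to Col6a2, 0.84 for Col4a1 to Col4a2 and 4.66 for Col8a1 to Col8a2, so the order within each pair did not turn on the scale.

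The comparison between animals in these libraries is that of GFAP-IL6 with WT mice, with the mouse as the replicate. No collagen gene passed it. Counts passed edgeR's filter on low counts in 31 of the 44 genes, and not tested below means outside these 31. In edgeR's quasi-likelihood test 0 of these 31 were called at a Benjamini-Hochberg adjusted p under 0.05. Of all 14621 genes tested 263 were called (1.8%). At an unadjusted p under 0.05 there were 5 of 31 collagen genes (16.1%), against 8.75% of all genes tested. DESeq2 also called 0 of the 43 to which it gave an adjusted p, against 1.58% of all genes called. In DESeq2 3 genes had an unadjusted p under 0.05, Col7a1, Col4a1 and Col4a6, against 5.36% of all genes. The fitted change was higher in GFAP-IL6 for 18 and lower for 13 of the 31 (58.1% higher, against 48.1% of all genes tested), and its median was 0.077 on the log2 scale, against -0.0069 over all genes tested. The lowest adjusted p of a collagen gene was 0.168 in edgeR. The 95% interval of the log2 fold change lay within -1 to 1 for 18 of the 31 genes and reached past 1 or -1 for 13, so for these 13 the data leave a change of that size possible.

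In bulk tissue a lower count can come from fewer cells of a type or from less RNA per cell, and these cannot be told apart here. The levels of all GFAP-IL6 mice lay above those of all WT mice for 5 of the 31 genes, Col4a1, Col5a2, Col6a1, Col7a1 and Col16a1, and no gene had them all below. Among all genes tested 8.43% had every GFAP-IL6 mouse above and 5.93% every GFAP-IL6 mouse below. The smallest p that an exact permutation test of 3 against 3 mice can give, 0.1 two-sided, was that of each of the 5 genes.

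**Figure D2:**
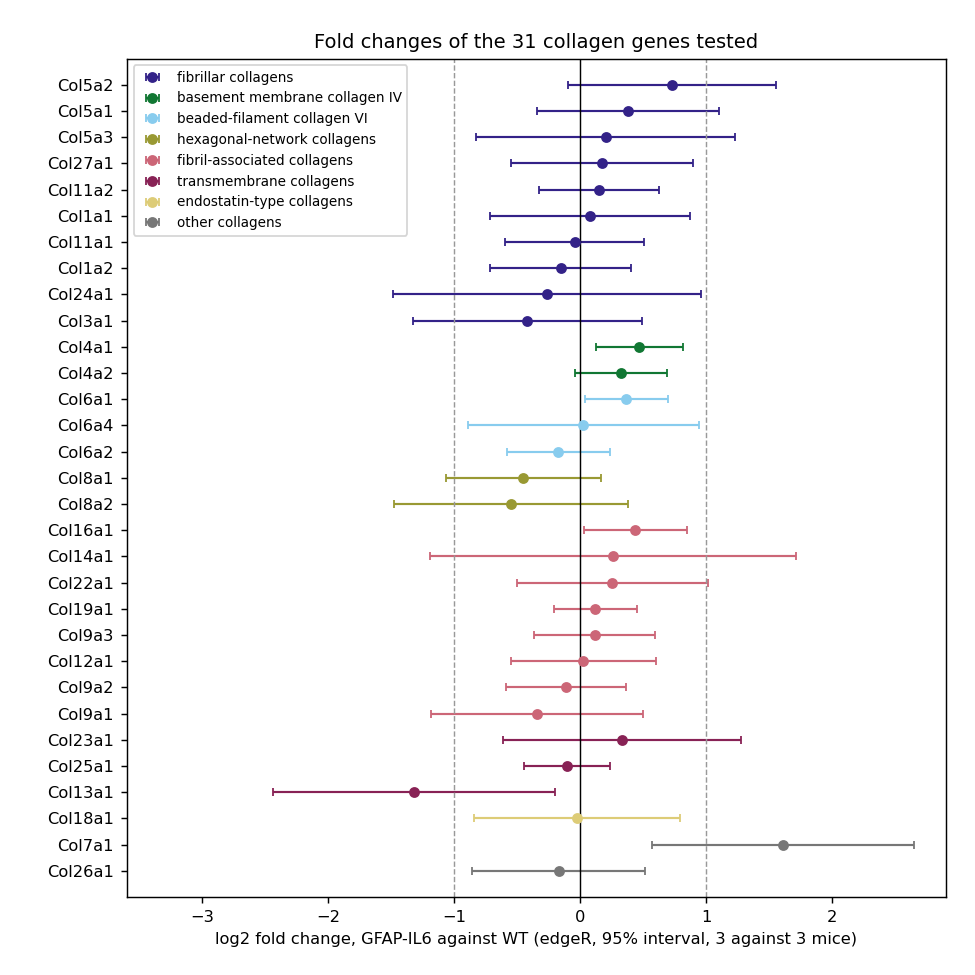
Log2 fold change of the 31 collagen genes tested, GFAP-IL6 against WT, with the 95% interval of edgeR's fit over 3 against 3 mice, grouped by role and ordered by size within a role. Intervals of Col4a1, Col6a1, Col16a1, Col7a1 and Col13a1 exclude 0 before adjustment for the number of genes, and none of the 31 passed it after adjustment.

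Collagen IV is the network-forming collagen beneath endothelial cells and around the brain's surface. Col4a1 was at 9.57, 9.48 and 6.82 CPM in WT 1, 2 and 3 and at 11.0, 13.7 and 11.8 CPM in GFAP-IL6 1, 2 and 3. The GFAP-IL6 mice were all higher, with a log2 fold change of 0.47 ± 0.16 (SE), an interval of 0.13 to 0.81 and an adjusted p of 0.275 in edgeR. Col4a2 was at 11.8, 9.09 and 11.4 CPM in the WT and 10.7, 16.4 and 12.7 CPM in the GFAP-IL6 mice. These groups overlapped, since GFAP-IL6 1 lay below WT 1 and WT 3, and the log2 fold change was 0.32 ± 0.17 (SE, edgeR adjusted p = 0.654). With WT 3 left out the log2 fold change of Col4a1 was 0.36, and without GFAP-IL6 2 that of Col4a2 was 0.14.

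The levels of the endothelial markers stood beside those of collagen IV. The 8 markers of endothelial cells summed to 123.1, 124.1 and 127.8 CPM in the WT mice and to 144.3, 234.4 and 227.3 CPM in the GFAP-IL6 mice. All 8 were fitted higher, against 48.1% of all genes tested, of which 1.8% were called. Of the 8 markers, Flt1, a receptor of vascular endothelial growth factor, and Ly6c1, a surface protein of brain endothelium, were called in edgeR. Their log2 fold changes were 0.70 (edgeR adjusted p = 0.0064) and 0.82 (edgeR adjusted p = 0.0142). DESeq2 called Flt1 but not Ly6c1 (adjusted p = 0.183). Rgs5, a pericyte gene, was the only gene called of 8 pericyte and smooth muscle markers (0.52, adjusted p = 0.0206). The sum of all 6 collagen IV genes was 22.3, 19.3 and 19.2 CPM in the WT mice and 23.9, 31.1 and 26.0 CPM in the GFAP-IL6 mice. GFAP-IL6 2 was highest in both sums, but Ly6c1 was the largest part of the endothelial sum. It was at 145.6 CPM in GFAP-IL6 2 and 138.7 CPM in GFAP-IL6 3. Singly, Ly6c1, Flt1, Kdr and Cdh5 were higher in GFAP-IL6 2, and Cldn5, Pecam1, Tek and Slco1a4 in GFAP-IL6 3. The part of the endothelial share in the collagen IV values was not tested.

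The other 4 collagen IV genes, the chains of specialised basement membranes such as those of kidney and lens, were too low for edgeR's filter. They had between 7 counts for Col4a3 and 56 for Col4a5 over all libraries. Col4a6 had 39 counts and was at 0.10, 0.055 and 0.13 CPM in the WT mice and 0.42, 0.29 and 0.65 CPM in the GFAP-IL6 mice. DESeq2 gave Col4a6 a log2 fold change of 2.32, with an unadjusted p of 0.047 and an adjusted p of 0.767. Its groups did not overlap, but the WT values rest on 2, 1 and 1 counts. The level that 3 counts would give was 0.16, 0.16 and 0.38 CPM in WT 1, 2 and 3.

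Collagen VI forms beaded filaments next to basement membranes. Col6a1 was at 11.5, 11.9 and 12.6 CPM in the WT mice and 14.0, 12.9 and 18.6 CPM in the GFAP-IL6 mice. All GFAP-IL6 mice were higher, GFAP-IL6 2 only just above WT 3, and the log2 fold change was 0.37 ± 0.15 (SE, edgeR adjusted p = 0.485). Without GFAP-IL6 3 it was 0.17. Col6a2, the other abundant chain, was fitted lower at -0.17 (edgeR adjusted p = 0.89), and Col6a4 was at 0.024. Col6a3, Col6a5 and Col6a6 had 50, 20 and 26 counts and were not tested.

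Fibril-associated collagens sit on the surface of fibres or in basement membrane zones. Of these, 6 of 8 genes tested were fitted higher in GFAP-IL6, against 48.1% of all genes tested. Col16a1 was at 4.79, 4.05 and 4.99 CPM in the WT and 6.65, 6.24 and 5.81 CPM in the GFAP-IL6 mice. These groups were apart, the spread within them was small, and the log2 fold change was 0.44 ± 0.19 (SE, edgeR adjusted p = 0.519). Col19a1 was at 20.4, 18.6 and 12.2 CPM in the WT and 18.6, 20.3 and 18.1 CPM in the GFAP-IL6 mice. The GFAP-IL6 values lay within the range of the WT values, WT 3 was lowest, and the log2 fold change of 0.12 became -0.037 without that mouse. Col12a1 was at 2.24, 2.77 and 2.49 CPM against 2.53, 2.21 and 2.83 CPM, a log2 fold change of 0.022 with an interval of -0.55 to 0.60.

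**Figure D3:**
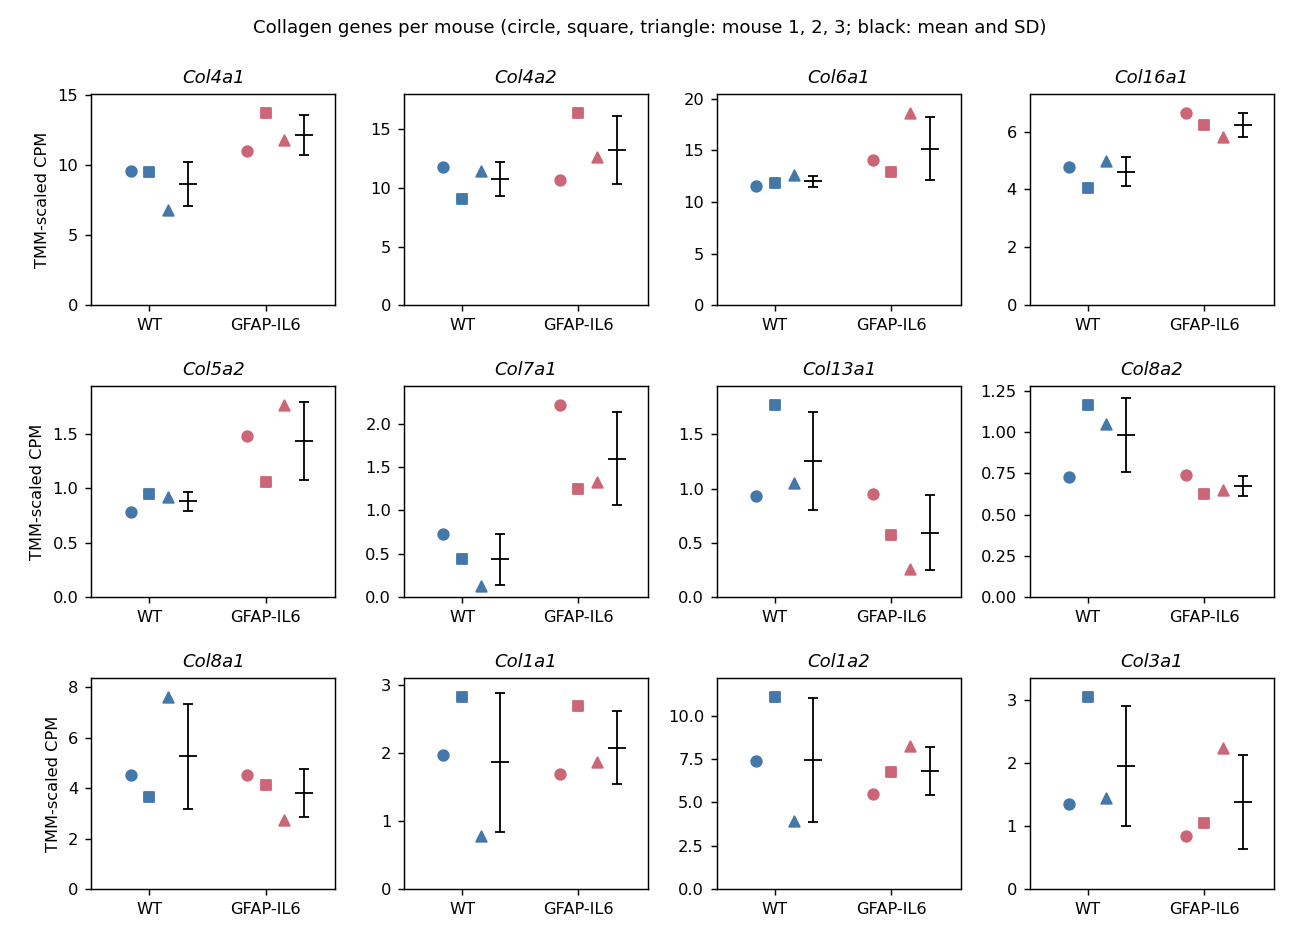
TMM-scaled CPM of 12 collagen genes in each mouse (circles, squares and triangles for mice 1, 2 and 3 of WT, left, and GFAP-IL6, right), with the mean and SD of each group in black and every axis from 0. The groups are apart for Col4a1, Col6a1, Col16a1, Col5a2 and Col7a1 and overlap for the other 7 genes.

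Among the genes tested in edgeR, the largest fitted changes belonged to 2 genes of low level. Col7a1, the chain of the anchoring fibrils that fasten basement membranes to the tissue below, was at 0.73, 0.44 and 0.13 CPM in the WT mice and 2.22, 1.25 and 1.32 CPM in the GFAP-IL6 mice. These values are 14, 8 and 1 counts in the WT and 21, 26 and 51 counts in the GFAP-IL6 mice, with no overlap in CPM. The log2 fold change was 1.61 ± 0.49 (SE), with an interval of 0.57 to 2.65 and an adjusted p of 0.168 in edgeR and 0.23 in DESeq2. Among the alternatives run, its only call between genotypes came from a single random thinning of the counts. Other draws were not made, so the part of the draw in that call was not tested. With every mouse thinned to 7852743 counts in 1 random draw, its counts were 4, 2 and 1 in WT and 19, 12 and 10 in GFAP-IL6, the log2 fold change was 2.46 and the adjusted p was 0.0354 in edgeR. Without a filter on low counts the edgeR adjusted p was 0.0518, and leaving out each mouse in turn gave log2 fold changes of 1.36 to 2.15 with no call.

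Col13a1, a transmembrane collagen of cell junctions and neuromuscular synapses, had the largest fitted decrease. It was at 0.94, 1.77 and 1.05 CPM in the WT mice, and at 0.95, 0.58 and 0.26 CPM in the GFAP-IL6 mice. GFAP-IL6 1 lay just above WT 1, so the groups met, and the log2 fold change was -1.32 ± 0.52 (SE, interval -2.44 to -0.20, edgeR adjusted p = 0.414). It was -0.81 without GFAP-IL6 3, -0.92 without WT 2 and -1.69 without GFAP-IL6 1. Col25a1, a transmembrane collagen of neurons also known from amyloid plaques, was at 11.8, 12.5 and 13.5 CPM in the WT and 11.5, 9.26 and 13.8 CPM in the GFAP-IL6 mice. Its groups overlapped and its log2 fold change was -0.11, with an interval of -0.45 to 0.23. Col23a1 was fitted at 0.33 and Col17a1, with 52 counts, was not tested.

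The main fibrillar chains ranged more widely among the WT mice than their group means were apart. Col1a2 was at 7.39, 11.1 and 3.94 CPM in the WT and 5.48, 6.76 and 8.25 CPM in the GFAP-IL6 mice. Col1a1 was at 1.98, 2.83 and 0.79 CPM in the WT and 1.69, 2.69 and 1.87 CPM in the GFAP-IL6 mice. Col3a1, the chain of the thin fibres of soft tissue, was at 1.35, 3.05 and 1.44 CPM in the WT and 0.84, 1.06 and 2.23 CPM in the GFAP-IL6 mice. In all 3 genes WT 2 was the highest mouse, and the GFAP-IL6 values lay within the range of the WT values except for that of Col3a1 in GFAP-IL6 1 and 2, which were below it.

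For these genes the log2 fold changes were -0.16 for Col1a2 (interval -0.72 to 0.40), 0.077 for Col1a1 (interval -0.72 to 0.87) and -0.42 for Col3a1 (interval -1.33 to 0.49). Without WT 2 the values for Col1a2 and Col3a1 were 0.23 and 0.095, and without WT 3 that of Col1a1 was -0.18, so none had a stable direction. WT 2 and GFAP-IL6 3, the highest mice for Col1a2 and Col3a1, were also the highest for the sum of the fibroblast and meningeal markers, of which 0 of 10 were called between genotypes. Singly they were the 2 highest mice for 3 of the 10 markers, Dcn, Igf2 and Mgp, whereas Ogn and Slc22a6, for example, were higher in WT 1 than in GFAP-IL6 3. Dcn, a proteoglycan of fibroblasts, was at 14.3, 23.4 and 10.4 CPM in the WT and 17.0, 16.0 and 26.2 CPM in the GFAP-IL6 mice. The part of meningeal tissue in these values was not tested.

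Col5a2 is a minor chain that is built into the fibres of collagen I. It was at 0.78, 0.94 and 0.92 CPM in the WT and 1.48, 1.06 and 1.76 CPM in the GFAP-IL6 mice. These values are 15, 17 and 7 counts in the WT and 14, 22 and 68 counts in the GFAP-IL6 mice. The groups did not overlap in CPM. The log2 fold change was 0.73 ± 0.39 (SE, interval -0.10 to 1.55, edgeR adjusted p = 0.655), and a difference from the main chains was not tested. Over the 10 fibrillar genes tested, 6 were fitted higher and 4 lower, the median was 0.11, and 0 had an unadjusted p under 0.05. Of all genes tested, 48.1% were fitted higher and 8.75% had an unadjusted p under 0.05. Col2a1, the collagen of cartilage, had 19 counts and was not tested.

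The hexagonal-network collagens were both fitted lower. Col8a1, a chain of the sheets of collagen VIII, was at 4.53, 3.66 and 7.61 CPM in the WT and 4.54, 4.13 and 2.75 CPM in the GFAP-IL6 mice. WT 3 was far above the rest, and the log2 fold change of -0.45 (edgeR adjusted p = 0.739) became -0.15 without that mouse. Col8a2 was at 0.73, 1.16 and 1.05 CPM in the WT and 0.74, 0.62 and 0.65 CPM in the GFAP-IL6 mice, overlapping by GFAP-IL6 1, with a log2 fold change of -0.55 (interval -1.48 to 0.38). Col10a1, the third gene of the group, had 5 counts, which all came from WT 1 and GFAP-IL6 3.

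WT 3 was the highest mouse not only for Col8a1 but also for Col9a3, Col11a1, Col18a1, Col9a1 and Col14a1. Col11a1 was at 3.33, 3.16 and 4.86 CPM in the WT and 2.74, 4.27 and 3.45 CPM in the GFAP-IL6 mice, with a log2 fold change of -0.044. Col9a3, a chain of collagen IX, was at 6.61, 7.92 and 13.8 CPM in the WT and 8.12, 9.45 and 11.1 CPM in the GFAP-IL6 mice. Col18a1, whose end fragment is endostatin, was at 1.41, 1.27 and 2.10 CPM in the WT and 0.84, 1.49 and 1.89 CPM in the GFAP-IL6 mice. WT 3 also had the lowest value for 10 of the 31 genes tested, so it was at 1 end of the range for 16 of them, against 7 to 11 for the other mice. It was the mouse with the fewest counts and with the highest sum of choroid plexus markers. Of these markers 6 were tested, 0 called and 0 fitted higher in GFAP-IL6, against 48.1% of all genes tested fitted higher. The part of choroid plexus tissue or of depth in these values was not tested, and with WT 3 left out 0 collagen genes were called.

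**Figure D4:**
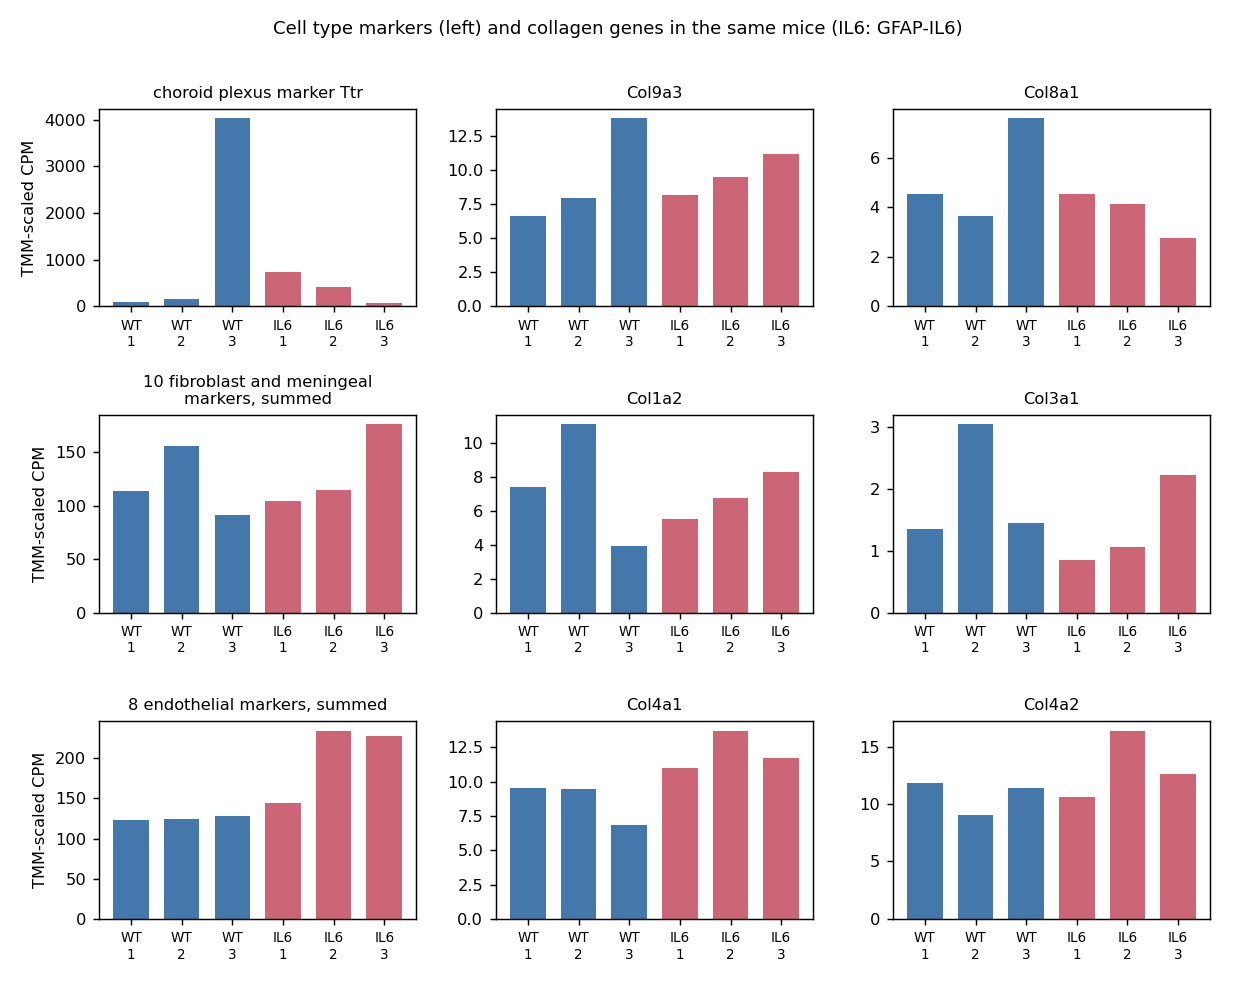
Bars give TMM-scaled CPM in each mouse, from 0, for a cell type marker or marker sum on the left and for 2 collagen genes beside it. Ttr, Col9a3 and Col8a1 are highest in WT 3, the fibroblast and meningeal sum, Col1a2 and Col3a1 are highest in WT 2 and GFAP-IL6 3, and the endothelial sum, Col4a1 and Col4a2 are highest in GFAP-IL6 2.

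The spread between mice can be set against that between libraries of 1 mouse. For each gene the variance of the counts around their expectation was divided by that of pure counting, so that 1 means counting error alone. Between the 4 libraries of a mouse the median of this index over the 31 genes was 1.86, with a range of 0.62 to 3.97. Between mice of 1 genotype it was 2.91, and it was above 5 for 10 genes. The highest values were 13.9 for Col5a1, 11.9 for Col1a2 and 10.3 for Col9a3, and among the lowest were 0.56 for Col16a1 and 0.58 for Col6a2. The index grows with the number of counts, and a mouse sum holds those of 4 libraries, so both indices are given side by side and were not compared by a test.

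Genes that work on collagens were examined by lists. Over all genes tested in edgeR, 1.8% were called, 48.1% were fitted higher in GFAP-IL6 and 8.75% had an unadjusted p under 0.05. Of 28 genes for processing and cross-linking, 24 were tested, 0 were called and 18 were fitted higher in GFAP-IL6, with a median log2 fold change of 0.25 and 6 at an unadjusted p under 0.05. P4ha1, a subunit of the prolyl hydroxylase that stabilises the helix, had the lowest adjusted p of the list. It was at 35.1, 42.9 and 46.3 CPM in the WT and 48.6, 56.0 and 63.5 CPM in the GFAP-IL6 mice, with no overlap, a log2 fold change of 0.46 and an adjusted p of 0.0865 in edgeR. This gene and the 2 receptors below were named after their values were seen. Of 12 genes for breakdown and its inhibitors 10 were tested, 0 were called, 7 were fitted higher and 2 had an unadjusted p under 0.05. Of 15 partners in the basement membrane, the laminin, nidogen, perlecan and agrin genes, all 15 were tested, 0 were called, 10 were fitted higher and 1 had an unadjusted p under 0.05.

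Of the collagen receptors, 7 were tested and 0 were called in edgeR, whereas DESeq2 called 2. Over all genes, edgeR called 1.8% and DESeq2 1.58%. Lair1, an inhibitory collagen receptor of leukocytes, was at 9.78, 11.0 and 6.96 CPM in the WT and 11.5, 17.3 and 18.5 CPM in the GFAP-IL6 mice. All GFAP-IL6 mice were higher, and the log2 fold change was 0.76 with an adjusted p of 0.0543 in edgeR and 0.0285 in DESeq2. Adgrg1, a receptor of collagen III on neural progenitors, oligodendrocyte precursors and microglia, was at 30.5, 33.5 and 26.9 CPM in the WT and 35.1, 44.2 and 51.1 CPM in the GFAP-IL6 mice. Its groups did not overlap either, and the log2 fold change was 0.53 with an adjusted p of 0.0589 in edgeR and 0.0291 in DESeq2. Microglia markers stood beside these values, with sums of 212 to 236 CPM in the WT and 321 to 418 CPM in the GFAP-IL6 mice and 5 of 6 called higher. The part of the microglial share in the receptor values was not tested. Of the other marker lists, 0 of 6 astrocyte, 0 of 6 oligodendrocyte precursor, 0 of 6 neuronal and 0 of 4 striatal markers tested were called.

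The amount of cDNA in the tagmentation was the condition the libraries were made to vary. The same 6 mice were compared at 2 ng and 1 ng, with the mouse as a block and sets A and B summed. Of the 23 collagen genes with enough counts 5 were called (21.7%), against 4462 of all 13389 genes tested (33.3%), so the share was not above that of all genes. By direction 2 were higher and 3 lower with 2 ng, against 15.6% and 17.7% of all genes tested. In this protocol samples are pooled before tagmentation, so mice of a set may share a reaction, and the p-values measure how alike the mice were rather than a spread between reactions. The value in each set is therefore given beside each result.

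Collagen genes called lower with 2 ng were Col11a1, Col1a1 and Col19a1. Col11a1, a fibrillar chain best known from cartilage, was at 2.38 ± 0.66 CPM with 2 ng and 4.56 ± 1.27 CPM with 1 ng (SD, n = 6 mice). It was lower with 2 ng in 6 of 6 mice, the log2 fold change was -0.81 (edgeR adjusted p = 2.3e-04), and the log2 ratios of the mean levels were -0.73 for set A and -1.06 for set B. Col1a1 was at 1.19 ± 0.67 CPM with 2 ng and 2.56 ± 0.86 CPM with 1 ng (SD, n = 6 mice). It was lower in 6 of 6 mice as well, with a log2 fold change of -1.04 (edgeR adjusted p = 3.5e-04) and ratios of -0.82 for set A and -1.35 for set B. Its partner chain Col1a2 was also lower with 2 ng in 6 of 6 mice but was not called. The log2 fold change of Col1a2 was -0.25 (edgeR adjusted p = 0.122), with ratios of -0.42 for set A and -0.11 for set B. The count ratio of Col1a1 to Col1a2 was 0.19 with 2 ng and 0.32 with 1 ng, and a difference between the chains was not tested. Col19a1 was at 16.6 ± 2.75 CPM with 2 ng and 19.2 ± 3.64 CPM with 1 ng, a log2 fold change of -0.26 (edgeR adjusted p = 0.0081). Its ratios did not have 1 sign, with 0.068 for set A and -0.47 for set B, and its call was lost without GFAP-IL6 2 or GFAP-IL6 3 (edgeR adjusted p of 0.0779 and 0.136).

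Those called higher with 2 ng were Col12a1 and Col6a1. Col12a1 was at 3.38 ± 1.02 CPM with 2 ng and 1.92 ± 0.60 CPM with 1 ng (SD, n = 6 mice), higher in 5 of 6 mice, with GFAP-IL6 1 the exception. The log2 fold change was 0.70 (edgeR adjusted p = 0.0061), with ratios of 1.18 for set A and 0.44 for set B. Col6a1 was at 14.8 ± 2.56 CPM with 2 ng and 12.8 ± 2.84 CPM with 1 ng, higher in 6 of 6 mice, with a log2 fold change of 0.24 (edgeR adjusted p = 0.0354) and ratios of 0.33 for set A and 0.14 for set B. Its call was lost without a filter on low counts (edgeR adjusted p = 0.0572) and when WT 1, WT 2, GFAP-IL6 2 or GFAP-IL6 3 was left out (edgeR adjusted p of 0.0637 to 0.149). DESeq2, and edgeR without the mouse block, called Col1a1 and Col11a1 only.

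**Figure D5:**
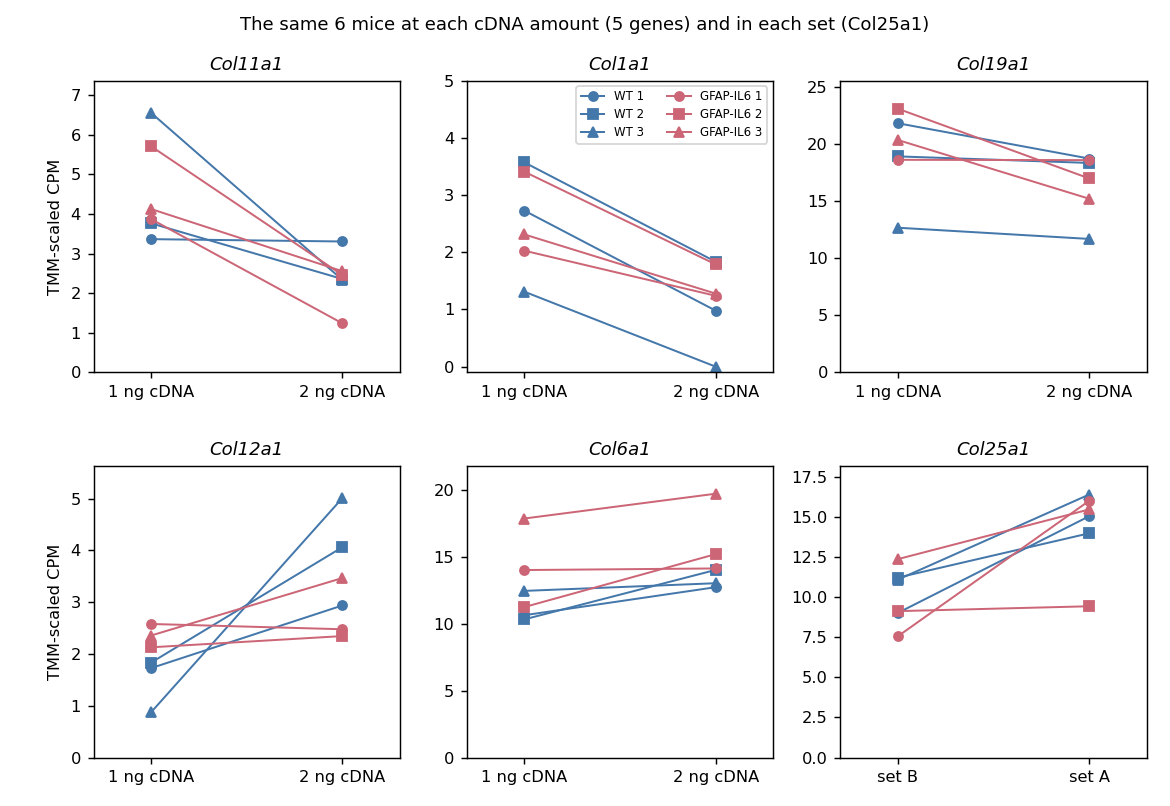
TMM-scaled CPM of the same 6 mice, joined by lines, at 1 ng and 2 ng of cDNA for 5 collagen genes and in sets B and A for Col25a1, with every axis from about 0. Lines fall in all mice for Col11a1, Col1a1 and Col19a1, rise in all for Col6a1 and Col25a1, and rise in 5 of 6 for Col12a1.

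Between sets A and B, 1 of 26 collagen genes was called (3.85%), against 23.3% of all 13581 genes tested. Col25a1 was at 14.4 ± 2.57 CPM for set A and 10.1 ± 1.78 CPM for set B (SD, n = 6 mice). It was higher in set A in 6 of 6 mice, least so in GFAP-IL6 2 with 9.43 against 9.12 CPM, and the log2 fold change was 0.47 (edgeR adjusted p = 0.002). The log2 ratio of set A to set B was 0.25 with 2 ng and 0.71 with 1 ng. What the sets stand for and the pools they were made in cannot be told apart.

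The genotype effect did not differ detectably between cDNA amounts or sets for any collagen gene. In the fit of the difference itself, which was added after the data were seen, 0 of 23 collagen genes had a genotype effect that differed between amounts at an adjusted p under 0.05 in edgeR, with 1 at an unadjusted p under 0.05 (against 3.94% of all genes), and 0 of all 13389 genes tested did (0%). Between sets there were 0 of 26, with 1 at an unadjusted p under 0.05 (against 4.29% of all genes), and 0 of all 13581 genes tested (0%). In the 4 sets of libraries taken singly, the log2 fold change of Col4a1 was 0.76, 0.64, 0.11 and 0.36 for 2 ng A, 1 ng A, 2 ng B and 1 ng B, and that of Col6a1 was 0.42, 0.45, 0.26 and 0.40, so both were fitted higher in GFAP-IL6 in each. For Col12a1 the same values were -0.88, -0.20, 0.31 and 1.28, with 2 of 4 on either side of 0.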

How the data were processed

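The deposited table holds raw read counts per gene and library for 24 libraries. The authors trimmed polyA, aligned reads to mm10 with STAR 2.4, counted unique reads on GENCODE vM6 with featureCounts and applied no normalization; the strand setting of the counting is not given in the sources used here. Counts of the 4 libraries of a mouse were summed, and positions were taken from GENCODE vM21, matched by Ensembl identifier. Genotypes were compared on these 6 sums with edgeR 4.0.16 in R 4.3.3 (TMM, filterByExpr, quasi-likelihood test, Benjamini-Hochberg over all genes tested); cDNA amounts and sets were compared on sums per mouse with the mouse as a block. DESeq2 1.42.0, other scalings and filters, single sets, thinning to equal totals and leaving out each mouse were alternatives. The fits were tested on simulated data. Members and lists were chosen with earlier results of these data known. Values in every mouse are given for members with an unadjusted p under 0.05, the main chains of collagen I, III and IV, the 3 largest fitted changes in each direction, the 5 highest levels and members called between amounts or sets. Depth was 1524165 to 12256374 counts per library, and the p-values measure the spread between mice. The TruSeq and HepG2 data of the study are not analysed here.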

Additional observations from a re-analysis of the deposited data

How the results depend on the processing

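Of the collagen genes 0 were called between genotypes under every alternative run except equal totals by thinning, a single random draw, which called 1, Col7a1. The other alternatives were edgeR under other scalings and filters, DESeq2, single sets, each mouse left out, a fold threshold and a replicate block. A fold threshold can only remove calls. Col7a1, Col5a2 and Col13a1 were not tested in any single set or with at least 10 counts required in every mouse. Those runs could not call these genes. The number of all genes called was 263, and became 462 without a filter on low counts and 125, 136, 132 and 140 in 2 ng A, 1 ng A, 2 ng B and 1 ng B alone, where fewer counts were available; it was 146 to 321 with a mouse left out, lowest without GFAP-IL6 3 and highest without GFAP-IL6 1. The median log2 fold change of the collagen genes tested was -0.048 in 2 ng A alone, 0.16 in 2 ng B alone and -0.027 to 0.14 with a mouse left out, negative without GFAP-IL6 3. Between cDNA amounts 2 collagen genes instead of 5 were called without the replicate block and 2 by DESeq2, and 3 to 6 with a mouse left out, 3 without GFAP-IL6 3. Between sets, 1 was called under every alternative run.

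Alternatives were computed for the 16 members named by rule, and directions turned for 7, each with a fitted change under 0.45 in size. With a mouse left out, Col1a1 ranged from -0.18 (without WT 3) to 0.47, Col1a2 from -0.39 to 0.23 (without WT 2), Col3a1 from -1.03 (without GFAP-IL6 3) to 0.095 (without WT 2), Col19a1 from -0.037 (without WT 3) to 0.26, Col25a1 from -0.29 to 0.037 (without GFAP-IL6 2), Col11a1 from -0.21 to 0.13 (without WT 3) and Col12a1 from -0.092 (without GFAP-IL6 3) to 0.12. In single sets, Col1a1 was at -0.39 in 1 ng B, Col1a2 at 0.096 in 1 ng A, Col19a1 at -0.078 in 2 ng A, Col25a1 at 0.17 in 2 ng B, Col11a1 at 0.11, 0.16 and 0.12 in 1 ng A, 2 ng B and 1 ng B, and Col12a1 at -0.88 and -0.20 in 2 ng A and 1 ng A. The cause was not tested. With same-numbered mice as a replicate block, 0 collagen genes and 215 of all genes were called, and of these 16 members only Col12a1 turned, to -0.0062. Same-numbered mice did not deviate together (r of -0.049, -0.032 and -0.034 across genes, against -0.080 to 0.13 for the other pairs). The labels do not say whether the numbers pair mice. For 13 of 44 collagen genes the counts did not pass edgeR's filter in the main comparison of genotypes. DESeq2 gave an adjusted p to 43 of the 44.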
